A study of Mus musculus with 6 samples.

Results

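The genes described here encode the enzymes that add methyl groups to histone lysines, those that remove them, and the subunits of the Polycomb complexes. A fixed list of 49 gene symbols defined them, matched to the gene IDs of the count tables through the GENCODE symbols, and all 49 were found among 55401 gene IDs. The samples were primary mouse cholangiocytes, the epithelial cells lining the bile ducts, taken with magnetic beads coated with an antibody against the surface protein EpCAM from perfused and digested livers. There were 3 libraries from wild-type (WT) mice and 3 from mice with polycystic liver disease (PLD), each 3 months after tamoxifen, which both groups had received per the protocol. The labels name no altered gene, Cre driver, strain, sex or age, and give no animal for each library. P-values therefore measure the spread between these libraries, which may be technical.

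Methylation of histone H3 at lysine 27 (H3K27) is laid down by Polycomb repressive complex 2 (PRC2), in which EZH2 or EZH1 is the catalytic subunit and EED and SUZ12 are needed for activity, and it marks silenced genes. Polycomb repressive complex 1 (PRC1) ubiquitinates histone H2A through RNF2 or RING1, and its CBX subunits can read the H3K27 mark. Methylation of H3K4 marks promoters and enhancers and is laid down by the KMT2 and SETD1 enzymes, which share a core of WDR5, RBBP5, ASH2L and DPY30. H3K36 and H3K79 methylation accompany transcription, and H3K9 methylation marks heterochromatin. The KDM enzymes listed here remove methyl groups from H3K4, H3K9, H3K27 or H3K36.

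Library totals ran from 15768561 to 16710548 counted reads, and the 6 libraries held at most 10 reads of Xist, so the X-linked members Kdm6a, Kdm5c and Suv39h1 were compared between libraries with next to no Xist RNA. Within a group, Pearson's r of log2 values across genes lay between 0.971 and 0.991. Markers of several cell types differed between the groups. Cholangiocyte markers were present in every library and 11 of 12 were higher in PLD (summed level 26487 to 35662 CPM against 7900 to 10971 in WT, median log2 fold change 1.63). CPM are read counts scaled to library size with factors from trimmed means (TMM). All 12 endothelial markers were lower in PLD (495 to 825 CPM against 5842 to 7833, median -3.45), as were 10 of 12 fibroblast, stellate and smooth muscle markers (1845 to 4764 against 8796 to 13885, median -1.73). Hepatocyte markers summed to 2980 to 6756 CPM in PLD and 1580.2 to 2492 in WT (3 of 12 higher, 5 lower, median -0.65). Macrophage markers summed to 1437 to 1952 and 1145 to 1464 (3 higher, 1 lower, median -0.040). Mesothelial markers summed to 746 to 1159 CPM in PLD and 38.8 to 43.9 in WT. Of 5 tested, 1 was higher (log2 fold change 5.77) and 3 lower, with a median of -1.69. Glial markers (22.7 to 36.2 against 62.6 to 103), lymphocyte markers (3.10 to 8.35 against 5.87 to 7.43) and neutrophil markers (7.51 to 19.8 against 21.2 to 40.8) were low in all libraries, with 1 of 6, 1 of 3 and 0 of 4 tested members higher and 5, 1 and 2 lower. None of the listed markers was at 0 in all libraries. The part of these differences in the results that follow was not tested, and fewer cells of a type and less RNA per cell cannot be told apart in bulk RNA.

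Of the 49 genes, 11 rose and 12 fell in PLD and 26 did not pass the test. All 49 reached the count level of the filter in every library of both groups, so none was tested through 1 group alone. Calls are from edgeR's quasi-likelihood test at a Benjamini-Hochberg adjusted p under 0.05 over the 15334 genes tested. Among all tested genes 55.4% passed, 27% higher and 28.4% lower, so the members' share was no larger than that of genes at large. Their median log2 fold change was 0.028, against 0.0060 over all genes. Changes of at least 2-fold were fewer, with 2 members higher (Rnf2 and Dpy30) and 2 lower (Setd7 and Phf19), where 9.21% and 18.1% of all genes changed as much. PLD and WT libraries did not overlap for 29 members, 13 higher and 16 lower, against 66.2% of all genes (33% higher and 33.2% lower).

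**Figure D1:**
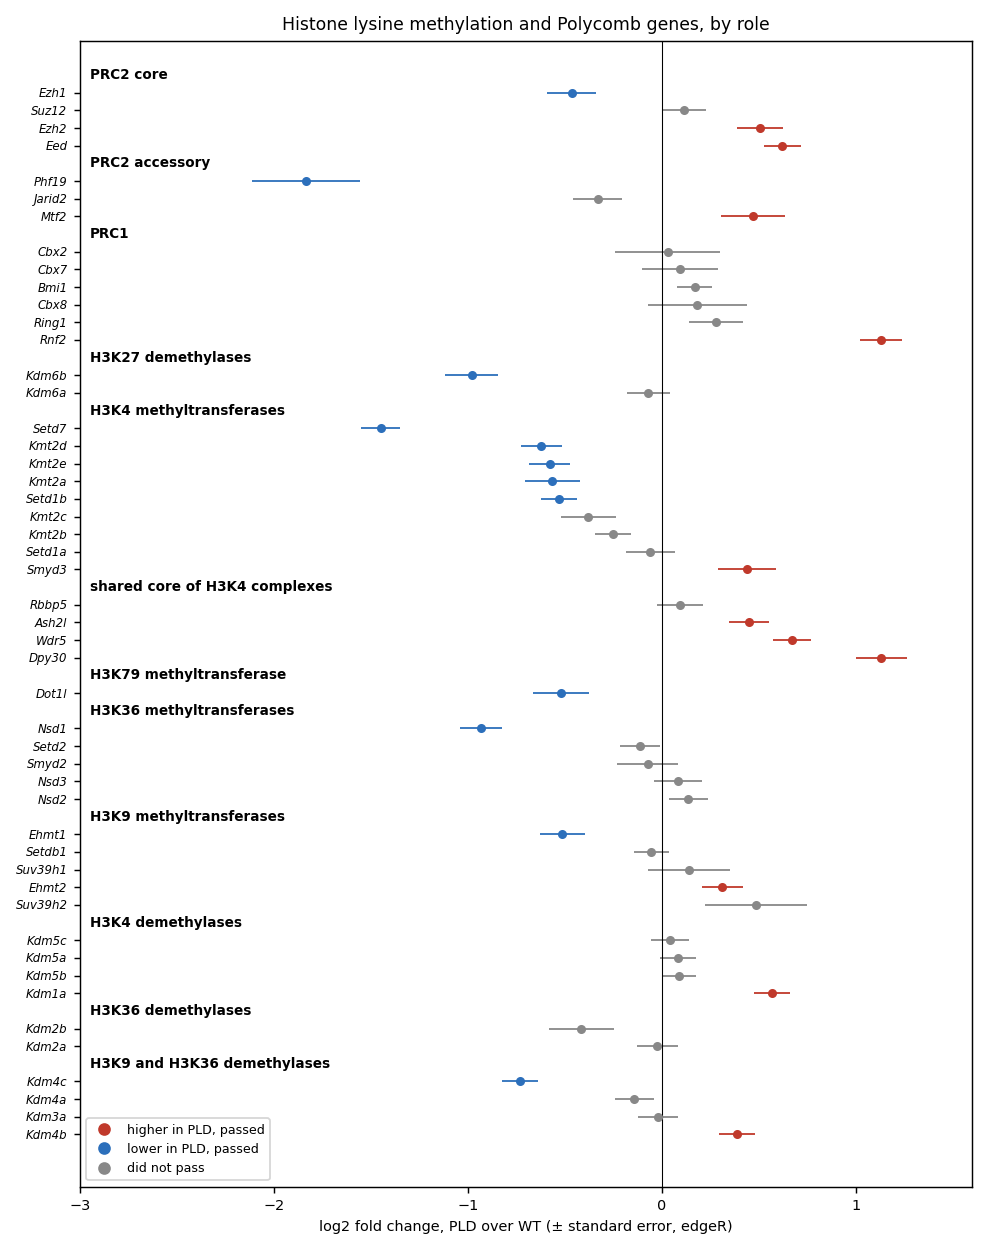
Log2 fold change of PLD over WT for the 49 genes, grouped by role, with points for the edgeR estimate and horizontal lines for 1 standard error. Red and blue points passed the test, and the shared core of the H3K4 complexes lies right of 0 where 8 of the 9 H3K4 methyltransferase genes lie left of it. Of 15334 tested genes 7611 lie left of 0. All of the 9 but Setd1a are in the longest quintile by exonic length, where the median of all genes was -0.23.

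The promoters of the 4 members that changed at least 2-fold are printed here, with those of Ezh1 and Ezh2, paralogs that moved in opposite directions. They are from RefSeq on GRCm38.p6, 5′ to 3′ on the strand of the gene. Each runs from 250 bases before to 50 bases after an annotated start. Capitals mark matches, on either strand, to the GC box of SP and KLF factors (GGGCGG), the CCAAT box (CCAAT), the E2F motif (TTTGGCGC or TTTCGCGC), the YY1 motif (AAGATGGC), the ETS motif (CCGGAAG) and the cAMP response element (TGACGTCA). RefSeq windows matched 36 of the 49 genes, with 49 windows in all, and the Dpy30 window is 1 of 4 listed for that gene.
Rnf2, chr1:151500942-151501241, minus strand: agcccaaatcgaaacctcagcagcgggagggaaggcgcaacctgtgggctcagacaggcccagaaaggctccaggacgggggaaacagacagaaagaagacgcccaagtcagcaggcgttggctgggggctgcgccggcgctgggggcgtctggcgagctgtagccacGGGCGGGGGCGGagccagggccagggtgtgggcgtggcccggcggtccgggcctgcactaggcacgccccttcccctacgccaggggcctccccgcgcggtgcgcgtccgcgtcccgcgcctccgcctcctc
Dpy30, chr17:74316162-74316461, minus strand: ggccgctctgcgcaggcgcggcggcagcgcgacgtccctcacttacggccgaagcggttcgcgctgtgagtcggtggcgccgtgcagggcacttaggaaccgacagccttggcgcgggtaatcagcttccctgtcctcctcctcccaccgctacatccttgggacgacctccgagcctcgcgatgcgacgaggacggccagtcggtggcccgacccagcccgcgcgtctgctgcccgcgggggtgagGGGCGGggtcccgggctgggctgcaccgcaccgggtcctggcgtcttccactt
Setd7, chr3:51560774-51561073, minus strand: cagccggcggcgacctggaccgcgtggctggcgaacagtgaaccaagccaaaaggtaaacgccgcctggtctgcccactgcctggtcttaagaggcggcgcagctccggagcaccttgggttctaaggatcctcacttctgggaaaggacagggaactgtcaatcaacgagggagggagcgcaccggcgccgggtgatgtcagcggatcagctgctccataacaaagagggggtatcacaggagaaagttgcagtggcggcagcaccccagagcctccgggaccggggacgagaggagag
Phf19, chr2:34913927-34914226, minus strand: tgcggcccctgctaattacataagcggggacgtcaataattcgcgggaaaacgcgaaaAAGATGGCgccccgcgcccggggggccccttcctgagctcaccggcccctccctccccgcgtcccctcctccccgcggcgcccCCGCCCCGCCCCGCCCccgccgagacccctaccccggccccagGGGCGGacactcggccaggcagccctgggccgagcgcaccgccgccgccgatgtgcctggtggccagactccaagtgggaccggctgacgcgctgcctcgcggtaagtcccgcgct
Ezh1, chr11:101226414-101226713, minus strand: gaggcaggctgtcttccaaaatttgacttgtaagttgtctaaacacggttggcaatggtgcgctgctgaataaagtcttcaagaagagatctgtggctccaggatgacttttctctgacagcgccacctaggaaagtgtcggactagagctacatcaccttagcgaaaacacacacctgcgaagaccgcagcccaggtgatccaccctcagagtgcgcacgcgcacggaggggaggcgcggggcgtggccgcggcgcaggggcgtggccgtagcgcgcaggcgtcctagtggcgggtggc
Ezh2, chr6:47594981-47595280, minus strand: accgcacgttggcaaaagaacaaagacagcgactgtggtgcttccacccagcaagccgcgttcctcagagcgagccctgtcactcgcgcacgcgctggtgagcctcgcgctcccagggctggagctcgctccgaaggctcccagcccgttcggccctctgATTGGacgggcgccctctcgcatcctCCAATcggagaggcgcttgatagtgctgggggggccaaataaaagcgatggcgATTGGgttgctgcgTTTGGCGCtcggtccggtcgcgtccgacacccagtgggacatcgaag

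The Ezh2 window held 3 CCAAT boxes and an E2F motif, the latter found in 1 of the 49 member windows and in 0.813% of 32851 windows of all genes. GC boxes lay in the Rnf2 and Phf19 windows, in the printed Dpy30 window but none of the other 3 of that gene, and in 33 of 49 member windows (67.3%), against 35.7% of all windows. The YY1 motif of Phf19 occurred in 5 member windows (10.2%, against 2.75% of all), the CCAAT box in 17 (34.7%, against 37.4%), the ETS motif in 3 (6.12%, against 8.86%) and the cAMP response element in 2 (4.08%, against 1.79%). The Setd7 and Ezh1 windows held none of these letters. Member windows had a median of 28 CpG dinucleotides, against 7 over all windows. The printed windows held 30 CpG in Rnf2, 39 in Dpy30, 38 in Phf19, 21 in Setd7, 23 in Ezh1 and 31 in Ezh2. These are matches of letters in a window, not sites.

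Within the core of PRC2, the catalytic genes diverged, Ezh2 rising and Ezh1 falling, while Eed rose and Suz12 did not pass. Ezh2, the catalytic subunit most associated with dividing cells (ENSMUSG00000029687.16, mm10 chromosome 6, 47530139 to 47595341), had 15.8, 15.8 and 14.2 CPM in the WT libraries and 20.04, 23.6 and 21.3 in the PLD libraries. Every PLD library lay above every WT library, and the mean went from 15.3 ± 0.906 to 21.7 ± 1.81 CPM (SD, n = 3 libraries each), a log2 fold change of 0.51 ± 0.12 (standard error, SE) with an edgeR adjusted p of 0.00914. Ezh1, its paralog in non-dividing cells (ENSMUSG00000006920.14, chromosome 11, 101191115 to 101226463), had 64.2, 58.9 and 58.6 CPM in WT and 51.3, 39.6 and 40.7 in PLD. It fell by 0.47 ± 0.12 on the log2 scale (edgeR adjusted p = 0.0149), with PLD replicate 1 nearest to WT. The Ezh1 call was lost without PLD replicate 2 (adjusted p = 0.0618) or 3 (0.0531) and when a gene length trend was removed (0.0575). Eed, which binds the H3K27 mark and stimulates the enzyme (ENSMUSG00000030619.10, chromosome 7, 89954654 to 89980983), rose from 46.1 ± 1.84 to 70.8 ± 4.93 CPM, from 44.4, 45.8 and 48.1 in WT to 66.7, 76.2 and 69.4 in PLD (log2 fold change 0.62 ± 0.10, edgeR adjusted p = 0.00134). Suz12, the scaffold of the complex (ENSMUSG00000017548.15, chromosome 11, 79993106 to 80034123), had 63.5, 57.8 and 57.8 CPM in WT and 71.7, 57.3 and 64.8 in PLD, and the groups overlapped (log2 fold change 0.11 ± 0.11, adjusted p = 0.408).

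The accessory genes of PRC2 went both ways. Phf19, a Polycomb-like protein that guides PRC2 to its targets (ENSMUSG00000026873.9, chromosome 2, 34893757 to 34914026), showed the lowest fold change of the 49 genes. Its level was low, 3.60, 4.54 and 2.97 CPM in WT and 1.10, 1.10 and 0.901 in PLD, from 48 to 77 reads in a WT and 15 to 18 in a PLD library. It fell by 1.84 ± 0.28 on the log2 scale (edgeR adjusted p = 0.00124), with no overlap of the groups. Mtf2, another Polycomb-like gene, had 29.6, 32.9 and 30.6 CPM in WT and 54.5, 38.1 and 36.3 in PLD (log2 fold change 0.47 ± 0.17, edgeR adjusted p = 0.0443). The Mtf2 rise leaned on PLD replicate 1, with 0.27 without it (adjusted p = 0.0510), and the call was also lost without WT replicate 1 (0.103), 2 (0.0737) or 3 (0.114) and with limma-voom (0.0522). Jarid2, which helps to recruit PRC2, had a log2 fold change of -0.33 ± 0.13 and lay just outside the threshold (edgeR adjusted p = 0.0553). It passed without PLD replicate 3 (0.0406) and with a filter at 1 CPM in 3 libraries (0.0494).

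In PRC1, 1 of 6 genes passed, where 55.4% of all tested genes passed (27% higher and 28.4% lower). Rnf2, the main E3 ligase for H2A ubiquitination, also called RING1B (ENSMUSG00000026484.13, chromosome 1, 151458004 to 151500955), had 76.6, 69.5 and 83.3 CPM in WT and 180.0, 160.4 and 161 in PLD. It rose from 76.5 ± 6.94 to 167 ± 11.2 CPM, a 2.18-fold difference (1.13 ± 0.11 on the log2 scale, edgeR adjusted p = 0.000180). The highest WT library lay far below the lowest PLD library. Its paralog Ring1 had a log2 fold change of 0.28 ± 0.14 (adjusted p = 0.125, and 0.00972 without PLD replicate 1, where the value was 0.41). Bmi1, the ring-finger partner of RNF2 and RING1, had 0.17 ± 0.090 (adjusted p = 0.147) although its groups did not overlap. The chromodomain genes Cbx7 (0.091), Cbx8 (0.18) and Cbx2 (0.028) did not pass, and Cbx2 and Cbx8 were low, at most 7.44 CPM in any library.

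The H3K27 demethylase genes differed in level and in response. Kdm6b, also called JMJD3, an enzyme known as inducible by stress and cytokines (ENSMUSG00000018476.7, chromosome 11, 69398508 to 69413675), had 852, 704 and 934 CPM in WT and 422, 403 and 436 in PLD. It fell from 829.9 ± 116 to 420.1 ± 16.4 CPM, by 0.98 ± 0.13 on the log2 scale (edgeR adjusted p = 0.000812), and its PLD libraries lay close together while the WT libraries spread. Kdm6a, the X-linked enzyme also called UTX (ENSMUSG00000037369.17, chromosome X, 18162575 to 18279936), had 71.2, 73.6 and 66.04 CPM in WT and 71.8, 57.9 and 71.2 in PLD and did not pass (log2 fold change -0.070 ± 0.11, adjusted p = 0.620).

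**Figure D2:**
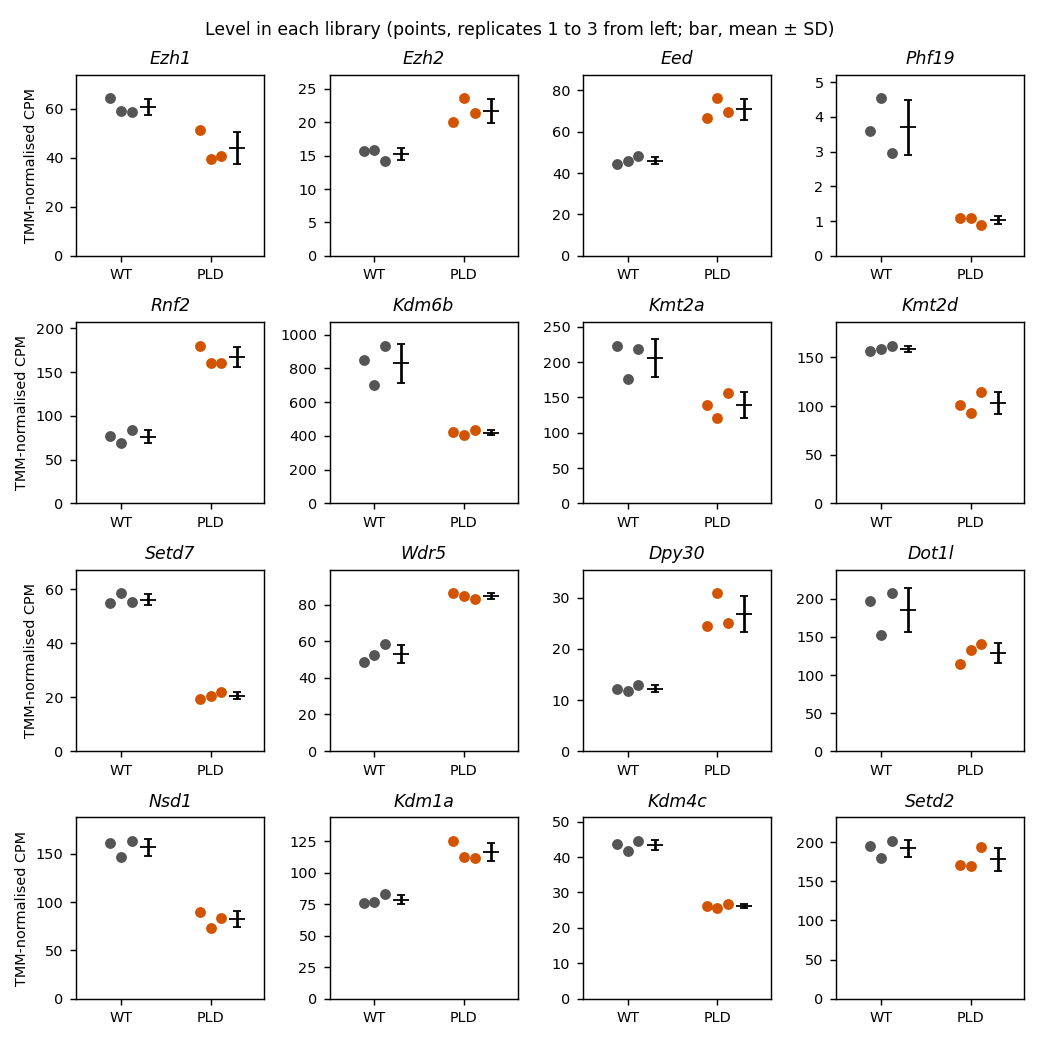
TMM-normalised CPM of 16 genes in each library (points; grey for WT, orange for PLD), with the mean ± SD of 3 libraries beside them and every axis starting at 0. Apart from Setd2, the genes shown are ones that passed the test, and their groups stand apart. Over all 49 members the groups did not overlap for 29, and over all tested genes for 66.2%. For Setd2, WT lay between 180.4 and 201 CPM and PLD between 169 and 194.

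Of the 9 genes for H3K4 methyltransferases 5 fell, 1 rose and 3 did not pass (median -0.53). Of all genes 28.4% were lower, and 39.8% in the longest quintile by exonic length, where 8 of these 9 lie. With a gene length trend removed, 2 of the 9 were lower (Setd7 and Kmt2e) and 1 higher, with a median of -0.17. Kmt2d, which methylates enhancers (ENSMUSG00000048154.17, chromosome 15, 98831669 to 98871204), had 156, 158 and 162 CPM in WT and 102, 93.2 and 115 in PLD (log2 fold change -0.62 ± 0.11, edgeR adjusted p = 0.00203). Kmt2a, the enzyme rearranged in leukaemia (ENSMUSG00000002028.13, chromosome 9, 44803355 to 44881296), had 223, 176 and 219 CPM in WT and 140.0, 121 and 157 in PLD (-0.57 ± 0.14, adjusted p = 0.0111). In both genes every PLD library lay below every WT library. Setd1b fell by 0.53 ± 0.093, and Kmt2e, a family member for which histone methyltransferase activity is doubtful, by 0.58 ± 0.11. With the length trend removed the calls of Kmt2d (-0.17, adjusted p = 0.126), Kmt2a (-0.18, 0.232) and Setd1b (-0.25, 0.0731) were lost, and Kmt2e had -0.35 (0.0245). Kmt2c (-0.38 ± 0.14, adjusted p = 0.0520) and Kmt2b (-0.25 ± 0.10, adjusted p = 0.0540) lay just outside the threshold, and their groups did not overlap. Kmt2c passed without PLD replicate 1 (adjusted p = 0.0308) or WT replicate 2 (0.0447), and with DESeq2, limma-voom, RLE or upper-quartile factors, the filter at 1 CPM, robust spread or a replicate block (0.0159 to 0.0496). Kmt2b passed with DESeq2 (0.0421) and with the filter at 1 CPM (0.0449). Setd1a (-0.060) did not pass, and its count is uncertain, since 52.3% of its exonic bases are shared with another annotated gene and by the counter's default reads there go to neither.

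Setd7 stood apart from the large enzymes. It encodes a smaller protein that monomethylates H3K4 and many non-histone proteins (ENSMUSG00000037111.9, chromosome 3, 51515319 to 51560879). Its level was 54.8, 58.5 and 55.4 CPM in WT and 19.3, 20.5 and 21.98 in PLD. It fell from 56.2 ± 1.97 to 20.6 ± 1.35 CPM, to a level 2.73-fold lower (log2 fold change -1.45 ± 0.10, edgeR adjusted p = 6.13e-05), the smallest adjusted p among the 49 genes. Smyd3, whose product also methylates kinases in the cytoplasm, rose by 0.44 ± 0.15 (adjusted p = 0.0382). That call was lost without PLD replicate 2 (0.116), PLD replicate 3 (0.0936), WT replicate 2 (0.114) or WT replicate 3 (0.122).

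The shared core of these complexes went the other way, with 3 of 4 genes rising and 0 falling (median 0.56). Of all tested genes 27% were higher and 28.4% lower. With the gene length trend removed, 3 of the 4 were higher and 0 lower (median 0.63), where 26.6% of all genes were higher and 27.2% lower. Dpy30, the smallest core subunit (ENSMUSG00000024067.14, chromosome 17, 74299474 to 74323944), had 12.2, 11.7 and 12.9 CPM in WT and 24.5, 30.9 and 25.1 in PLD. It rose 2.19-fold (log2 fold change 1.13 ± 0.13, edgeR adjusted p = 0.000419), with PLD replicate 2 highest. Wdr5, the subunit that docks the catalytic SET domain proteins (ENSMUSG00000026917.15, chromosome 2, 27515157 to 27536535), had 48.5, 52.4 and 58.5 CPM in WT and 86.1, 84.8 and 82.98 in PLD (0.67 ± 0.10, adjusted p = 0.00110). Ash2l rose by 0.45 ± 0.10 (adjusted p = 0.00789) and Rbbp5 did not pass (0.093 ± 0.12, adjusted p = 0.523). Of the catalytic genes Kmt2a to Kmt2d, Setd1a and Setd1b, 0 rose, 3 fell and 3 did not pass (median -0.46). The 3 calls, of Kmt2a, Kmt2d and Setd1b, were lost with the length trend removed. The opposite signs of core and catalytic genes were not tested as a difference.

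Among the methyltransferases of transcribed chromatin, Dot1l and Nsd1 fell. Dot1l, the H3K79 methyltransferase (ENSMUSG00000061589.14, chromosome 10, 80755206 to 80795461), had 197, 152 and 207 CPM in WT and 115, 133 and 140.4 in PLD (log2 fold change -0.52 ± 0.14, edgeR adjusted p = 0.0175). The lowest WT library, replicate 2, lay close to the highest PLD library, and the call was lost without PLD replicate 2 (adjusted p = 0.0521), WT replicate 1 (0.0507) or WT replicate 3 (0.0702), and with the length trend removed (-0.34, 0.0659). Nsd1, an H3K36 dimethyltransferase, fell from 157 ± 8.77 to 82.2 ± 8.06 CPM, from 161, 147 and 163 in WT to 89.2, 73.4 and 83.9 in PLD (-0.93 ± 0.11, adjusted p = 0.000388). Its relatives Nsd2 (ENSMUSG00000057406.16, chromosome 5, 33820725 to 33897975) and Nsd3 did not pass, with 0.14 ± 0.10 and 0.082 ± 0.12. Nsd2 had 48.9, 54.8 and 50.4 CPM in WT and 52.1, 57.7 and 59.4 in PLD. Setd2, which trimethylates H3K36 (ENSMUSG00000044791.16, chromosome 9, 110532597 to 110618633), had 195, 180.4 and 201 CPM in WT and 170.4, 169 and 194 in PLD, overlapping groups (-0.11 ± 0.10, adjusted p = 0.386). Smyd2 had -0.074 ± 0.16, and 30.0% of its exonic bases are shared with a gene on the opposite strand.

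The H3K9 methyltransferase genes also held a pair of paralogs moving apart. Ehmt1, which encodes GLP, fell by 0.51 ± 0.11 (edgeR adjusted p = 0.00705), from 61.9, 61.97 and 57.4 CPM in WT to 36.8, 43.00 and 47.02 in PLD. Ehmt2, which encodes its partner G9a, rose by 0.31 ± 0.11 (adjusted p = 0.0375), from 146, 139.5 and 152 to 163, 198 and 182 CPM. The Ehmt1 call held whichever library was left out, whereas that of Ehmt2 was lost without PLD replicate 2 (0.113) or 3 (0.0786), without WT replicate 1 (0.0854), 2 (0.110) or 3 (0.0756), and without a filter on low counts (0.0654). Setdb1, which silences retroelements (ENSMUSG00000015697.14, chromosome 3, 95323525 to 95357202), had 46.1, 46.2 and 48.99 CPM in WT and 46.8, 43.2 and 45.9 in PLD (-0.055 ± 0.091, adjusted p = 0.631). Suv39h1, an enzyme of pericentric heterochromatin (ENSMUSG00000039231.18, chromosome X, 8061171 to 8074760), had 10.8, 12.3 and 11.6 CPM in WT and 16.5, 9.45 and 12.4 in PLD (0.14 ± 0.21, adjusted p = 0.593), and the PLD libraries lay on both sides of the WT range. Suv39h2 was at most 3.58 CPM and did not pass (0.48 ± 0.26).

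Most demethylase genes did not pass: counting the H3K27 enzymes, 2 of 12 rose, 2 fell and 8 did not. Of all tested genes 55.4% passed, 27% higher and 28.4% lower. With the gene length trend removed, Kdm5a, Kdm5b and Kdm2a also passed as higher. Kdm1a, the amine oxidase LSD1 that removes H3K4 mono- and dimethylation (ENSMUSG00000036940.15, chromosome 4, 136550540 to 136602723), rose from 78.6 ± 3.62 to 116 ± 7.49 CPM, with 76.2, 76.8 and 82.8 in WT and 125, 113 and 112 in PLD (0.57 ± 0.093, edgeR adjusted p = 0.00178). The H3K4 trimethyl demethylase genes did not pass, with 0.081 for Kdm5a, 0.086 for Kdm5b and 0.041 for Kdm5c. Kdm5b (ENSMUSG00000042207.17, chromosome 1, 134560171 to 134635285) had 112, 107 and 107 CPM in WT and 109, 116 and 120.4 in PLD. Within the KDM4 enzymes of H3K9 and H3K36, Kdm4c fell by 0.73 ± 0.092 (adjusted p = 0.000581), with 43.7, 41.8 and 44.5 CPM in WT and 26.2, 25.5 and 26.6 in PLD. Kdm4b rose by 0.39 ± 0.094 (adjusted p = 0.00979), from 32.2, 32.7 and 33.2 to 44.9, 40.6 and 42.9 CPM, and Kdm4a (-0.14) did not pass. Kdm3a (-0.020) and Kdm2a (-0.025) were nearly level. Kdm2b, which brings a variant PRC1 to CpG islands, had -0.42 ± 0.17 (adjusted p = 0.0699, and 0.0254 without PLD replicate 3).

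The direction of change went with gene length, both in this set and across all genes. The 12 members that fell had a median exonic length of 9574.5 bases, the 11 that rose 5179, and all tested genes 4230. Across the 49 members Spearman's rho between log2 length and log2 fold change was -0.55 (Pearson -0.47), and across the 15334 genes -0.19 (Pearson -0.15). These are correlations across genes that share the same 6 libraries, given as a description. In the longest quintile of all tested genes (7336 bases and more), 16.7% were higher and 39.8% lower, with a median of -0.23. Of the 23 members in that quintile, 2 were higher and 9 lower, with a median of -0.33, so the share of long members that fell was near that of long genes at large. In the middle quintile (3540 to 5025 bases), 28.7% of all genes were higher and 27.8% lower, and 4 of 10 members were higher and 0 lower. In the next longer quintile (5026 to 7328 bases) 23.6% were higher and 31.3% lower, and of 13 members 4 were higher and 3 lower. The 2 shorter quintiles held 3 members: Dpy30 in the shortest, where 35.7% of genes were higher and 18.9% lower, and Smyd2 and Ring1 in the next, where 30.2% were higher and 24.3% lower.

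**Figure D3:**
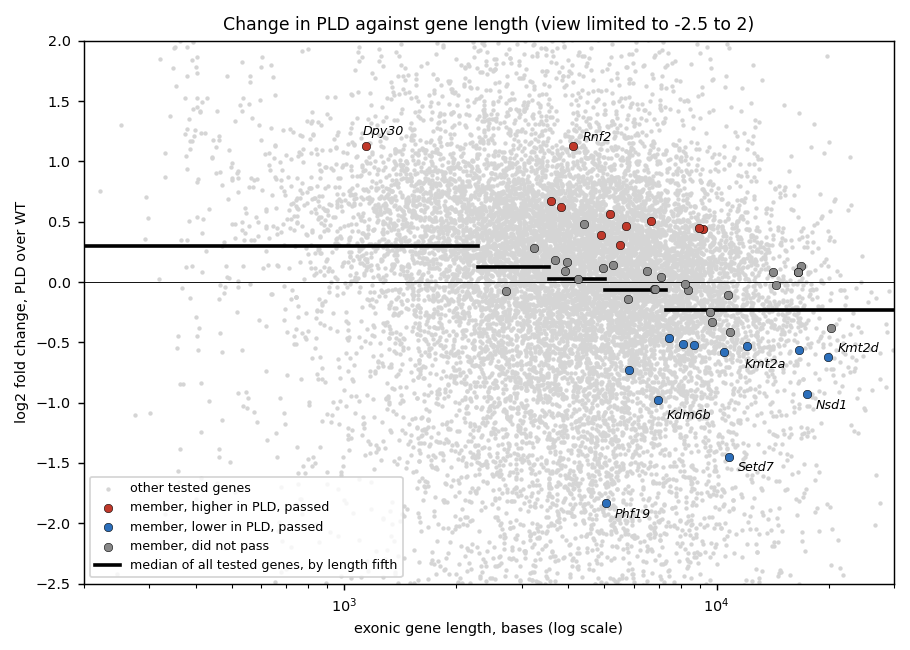
Log2 fold change (PLD over WT) against exonic gene length on a log axis for all tested genes (light grey) and the 49 members (coloured by call), with black lines for the median of all genes in each length quintile. The medians step down from 0.30 in the shortest to -0.23 in the longest quintile. There the 23 members had a median of -0.33 and lie on both sides of the line, with Kmt2a, Kmt2d, Nsd1 and Setd7 among those below it.

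When a trend on gene length was removed from each library, 16 members were higher and 7 lower, against 11 and 12 as fitted, while 26.6% and 27.2% of all genes passed in each direction. Beside Kmt2d, Kmt2a, Setd1b, Dot1l and Ezh1, whose calls were lost, Kmt2c changed sign to 0.081 and Setd1a to 0.056, neither passing. Setd7 (-1.20), Phf19 (-1.79), Kdm6b (-0.86), Kdm4c (-0.65), Nsd1 (-0.53) and Ehmt1 (-0.36) still passed as lower. The core genes Dpy30 (0.78), Wdr5 (0.63) and Ash2l (0.63) and the Polycomb genes Rnf2 (1.12), Eed (0.59) and Ezh2 (0.62) still passed as higher. Nsd2 (0.52), Nsd3 (0.47), Kdm5a (0.41), Kdm5b (0.47) and Kdm2a (0.31) passed as higher only with the correction, among the settings tried. The cause of the length trend was not tested.

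The calls of 7 members held in every setting tried, including a test against a minimum change of 0.5 on the log2 scale: Rnf2 and Dpy30 higher, and Setd7, Phf19, Kdm6b, Nsd1 and Kdm4c lower. These 7 are named for that property, which was looked up after their values were known.

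Levels between genes were compared as CPM per kilobase of exon. Kdm6b was the highest of the 49 in both groups, at 119 ± 16.7 in WT and 60.4 ± 2.36 in PLD (mean ± SD, n = 3). Ehmt2 came next in WT (26.6 ± 1.14), ahead of Dot1l (21.3 ± 3.38), and Rnf2 moved from the fifth place in WT (18.5 ± 1.68) to the second in PLD (40.5 ± 2.72). The least expressed were Suv39h2 (0.553 ± 0.137 in WT), Cbx2 (0.731 ± 0.105) and Phf19 (0.735 ± 0.157), which do not differ beyond their spread, and Phf19 was the lowest in PLD (0.205 ± 0.0228). In WT the core gene Wdr5 (14.8 ± 1.40) already had a higher mean than Kmt2a (12.4 ± 1.58) and Kmt2b (11.7 ± 0.472). The mean of the core gene Dpy30 (10.7 ± 0.544) was below both. In PLD, Wdr5 (23.5 ± 0.436) and Dpy30 (23.4 ± 3.06) lay above Kmt2a (8.34 ± 1.08) and Kmt2b (9.86 ± 0.725) by more than the SDs. This comparison leaves out the core genes Ash2l and Rbbp5 and the enzyme genes Kmt2c, Kmt2d, Setd1a and Setd1b. Wdr5 and Dpy30 are shorter than Kmt2a and Kmt2b, and the Kmt2a call was lost with the gene length trend removed.

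**Figure D4:**
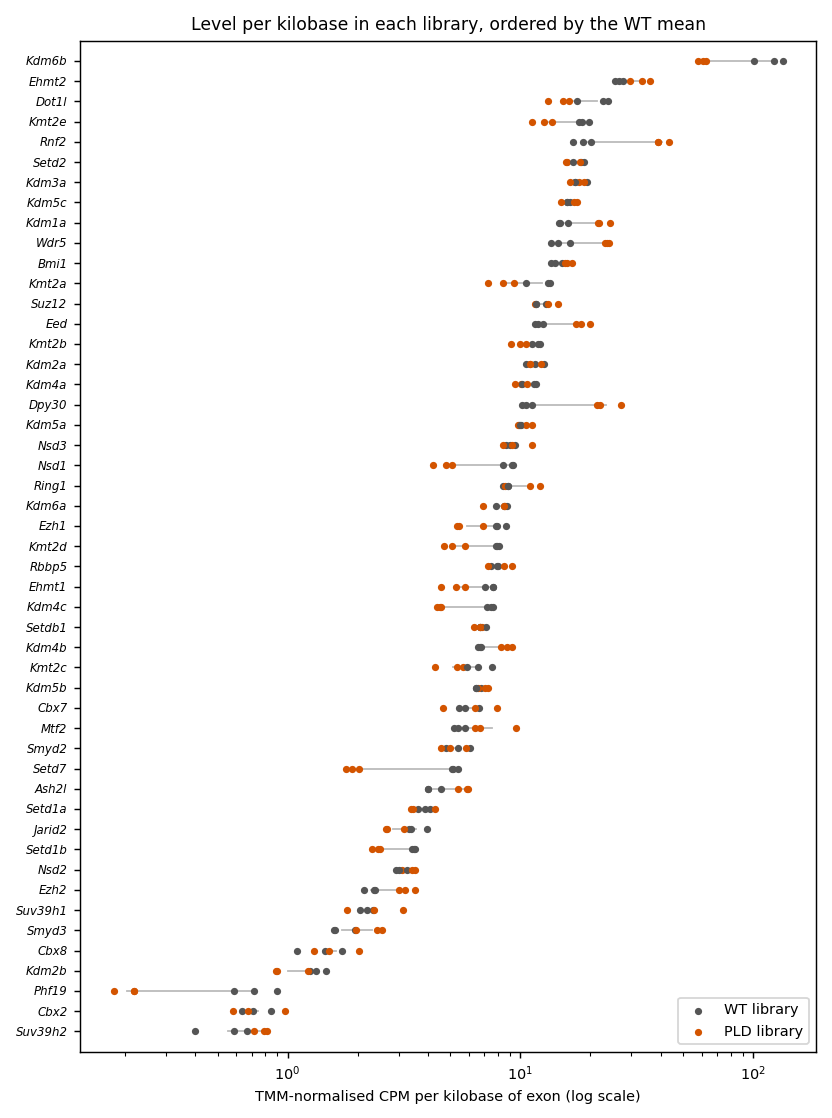
TMM-normalised CPM per kilobase of exon on a log axis for each of the 49 genes in each library (grey for WT, orange for PLD), ordered by the WT mean, with a line joining the group means. Kdm6b leads in both groups, and the longest lines belong to Phf19, Setd7, Dpy30, Rnf2, Kdm6b and Nsd1.

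Ratios of related enzymes within a library do not depend on how libraries are scaled. The ratio of Ezh2 to Ezh1, in reads per kilobase, was 0.273, 0.299 and 0.270 in WT and 0.435, 0.663 and 0.584 in PLD, so Ezh1 was the more abundant in all 6 libraries and by less in PLD. Kdm6b exceeded Kdm6a 14.4, 11.5 and 17.04-fold in WT and 7.08, 8.38 and 7.38-fold in PLD. Ehmt2 exceeded Ehmt1 3.49, 3.33 and 3.92-fold in WT and 6.54, 6.80 and 5.73-fold in PLD. For these 3 pairs and for Setd1a to Setd1b the groups did not overlap, with differences in mean log2 ratio, PLD minus WT, of 0.98, -0.90, 0.83 and 0.47, the last resting on the uncertain count of Setd1a. Each had p = 0.1 in an exact two-sided permutation test, the smallest that 3 against 3 libraries allow, and 0.15 after adjustment over the 6 ratios, so none could pass. Suv39h1 to Suv39h2 (-0.41) and Kmt2d to Kmt2c (-0.24) overlapped between groups (exact p = 0.3, adjusted 0.3).

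**Figure D5:**
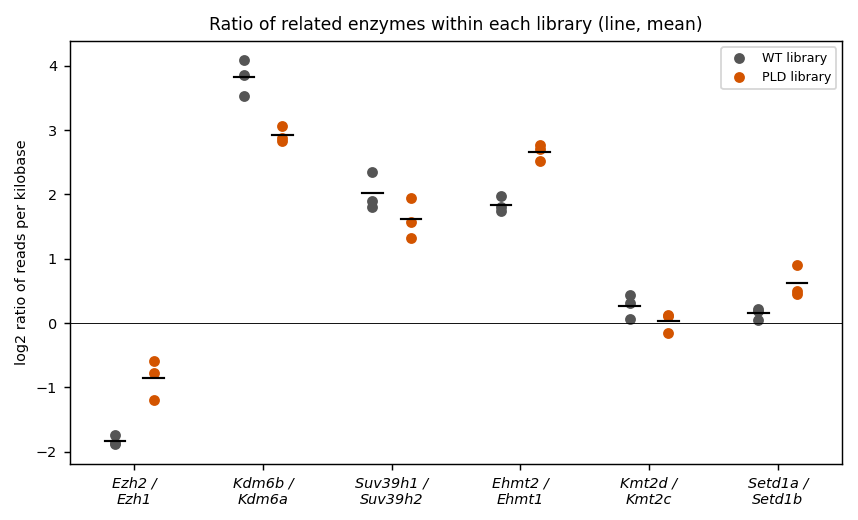
Log2 ratio of reads per kilobase of 6 pairs of related enzymes in each library (grey for WT, orange for PLD, short lines for the means). The Ezh2 to Ezh1 and Ehmt2 to Ehmt1 ratios lie higher and the Kdm6b to Kdm6a ratio lower in every PLD library than in every WT library.

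A wider list of 68 genes of the same machinery held 64 that were tested, of which 20 rose, 11 fell and 33 did not pass (median 0.065). The 31 calls are 48.4% of those tested, against 55.4% of all genes (27% higher and 28.4% lower). The 5 tested partners of PRC2 all rose. Epop, which links PRC2 to elongin, had 9.73, 9.67 and 8.53 CPM in WT and 34.6, 33.1 and 25.8 in PLD. It rose by 1.74 ± 0.15 on the log2 scale (edgeR adjusted p = 0.000123), and the groups lay apart. The histone-binding gene Rbbp4 rose by 0.43 ± 0.088 (adjusted p = 0.00483). Calls for the others were close to the threshold: Phf1 (0.55, adjusted p = 0.0210) lost its call without PLD replicate 2 (0.0583), WT replicate 2 (0.0706) or WT replicate 3 (0.0645). Aebp2 (0.36, adjusted p = 0.0457) lost it without PLD replicate 1 (0.0745), PLD replicate 3 (0.0631), WT replicate 1 (0.111) or WT replicate 2 (0.133). It also lost it with RLE scaling (0.0511) and with the filter at 1 CPM (0.0507). Rbbp7 (0.32, adjusted p = 0.0427) lost it without PLD replicate 2 (0.126) or 3 (0.103) and without WT replicate 1 (0.0738), 2 (0.101) or 3 (0.127). It also lost it without a filter on low counts (0.0677), with a replicate block (0.0622) and with the length trend removed (0.139).

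Other PRC1 subunits went both ways, 4 of 14 higher and 3 lower. The share called was 33.3% to 50% across the lists given here. Of all tested genes 55.4% were called, 27% higher and 28.4% lower. Phc3, a polyhomeotic subunit, fell by 1.03 ± 0.11 (edgeR adjusted p = 0.000307), and by 0.63 with the length trend removed. Of the further methyltransferase genes 3 of 16 rose and 5 fell. Kmt5a, the H4K20 monomethyltransferase, rose by 0.98 ± 0.12 (adjusted p = 0.000486), and Mecom fell by 3.14 ± 0.30 (adjusted p = 0.000183), from 71.6, 38.1 and 38.6 CPM in WT to 4.41, 5.67 and 6.73 in PLD. Beside Mecom stand the endothelial markers, with a median of -3.45, and the part of those cells in its fall was not tested. Among 11 tested other demethylases 3 rose and 1 fell, with Riox1 (1.17 ± 0.17) and Phf2 (-0.67 ± 0.084) the most certain. Among 8 tested H3K4 complex subunits 3 rose and 0 fell, led by Bod1 (0.64 ± 0.091, and 0.35 with the length trend removed). Of the H3K9 readers and partners 1 of 6 rose and 1 fell, the latter the chromatin remodeller gene Atrx (-0.86 ± 0.10, adjusted p = 0.000486, and -0.38 with the length trend removed). Of 4 genes of the Polycomb deubiquitinase 1 rose and 1 fell.

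The Hox genes and Cdkn2a are textbook targets of Polycomb silencing. Of 40 such genes 12 were tested and 28 were too low in both groups. Of the 12, 6 reached the level of the filter only in WT and 1 only in PLD, so these had to differ, and 5 reached it in both groups, so no count of calls is given for them. Hoxb4 had 10.9, 11.03 and 8.65 CPM in WT and 2.96, 2.56 and 2.40 in PLD (log2 fold change -1.95 ± 0.20, edgeR adjusted p = 0.000227). Hoxa3 had 7.08, 6.66 and 8.28 CPM in WT and 1.58, 1.83 and 1.62 in PLD (-2.12 ± 0.21). Both reached the level of the filter in WT and PLD. Hoxb3 and Hoxb2 reached it only in WT and Cdkn2a, a cell cycle inhibitor gene, only in PLD, so their values are given with no test. Hoxb3 had 2.60, 2.06 and 3.03 CPM in WT and 0.620, 0.488 and 0.540 in PLD. Hoxb2 had 2.48, 2.005 and 1.61 CPM in WT and 0.413, 0.305 and 0.420 in PLD. Cdkn2a had 0.236, 0.472 and 0.432 CPM in WT and 1.24, 1.16 and 1.02 in PLD. Fibroblast and endothelial markers fell in the same libraries (medians -1.73 and -3.45), and their part in the Hox values was not tested.

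Ezh2 is known to follow cell division, so proliferation genes are given beside it. Of 19 tested, 4 rose and 0 fell (median 0.42), and their summed level was 176 to 209 CPM in WT and 216 to 262 in PLD. The share called was 21.1%, against 55.4% of all tested genes (27% higher and 28.4% lower), so it was no larger than that of genes at large. Those that rose were Pcna (0.70), Tyms (0.68), Cdc20 (0.90) and Aurka (0.73). Mki67, the usual marker of cycling cells, had -0.58 and did not pass (edgeR adjusted p = 0.125), nor did Top2a (0.51, adjusted p = 0.338). Their part in the Ezh2 rise was not tested.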

How the data were processed

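RNA of 3 WT and 3 PLD cholangiocyte libraries was sequenced on the BGISEQ-500 platform, per the labels' protocols. The deposited values are raw counts of reads per gene, made by the authors with featureCounts 1.6.0 on GENCODE vM25 (mm10), per the file headers, with no option for strand, pairs, multi-mapping or overlap in the command. Reads of antisense partners, which overlap exons of 17 members, therefore cannot be told apart by strand, and reads in shared exons are left out by default. STAR 2.7.4a, SAMtools 1.12 and DESeq2 1.26.0 are named per the submitters' processing notes. Molecular identifiers are not mentioned, so read counts carry counting error and duplicates.

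Symbols came from GENCODE vM21 for 55141 of 55401 IDs. Totals were 15768561 to 16710548 reads, so 3 counts equal 0.180 to 0.190 CPM. Counts of 15334 genes kept by filterByExpr were TMM-scaled (0.922 to 1.04) and tested with edgeR 4.0.16 (R 4.3.3), PLD against WT, with p-values adjusted over all genes. The SE is the log2 fold change divided by the square root of F. The script was tested on simulated data. Replicates differed by more than sampling noise (chi-square per degree of freedom 9.68 to 63.9). Length quintiles and CPM per kilobase used the exonic length in the files. Ratios used SciPy 1.17.1. The length alternative removed a loess trend (span 0.5), centred at the median gene.

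Members, lists and motifs were chosen with earlier results of these data known. Full values are given for members changed at least 2-fold and for 16 main enzymes and subunits, and for up to 4 wider-list or Polycomb target genes of each direction with the smallest p; other values, such as those of paralogs and PRC2 partners, were added after being seen. Alternatives were DESeq2 1.42.0, limma-voom (limma 3.58.1), RLE and upper-quartile factors, 2 filters (none, or 1 CPM in 3 libraries), a replicate block, robust estimates of spread, the length correction, a minimum log2 change of 0.5 and leaving out each library.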

Additional observations from a re-analysis of the deposited data

How the results depend on the processing

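The counts of all genes called moved most with a minimum log2 change of 0.5, to 1832 higher and 2854 lower from 4136 and 4357, and those of members to 2 and 5 from 11 and 12, since that test asks for larger changes. With the gene length trend removed 7 members were lower, and the cause was not tested. Leaving out 1 library at a time gave 8 to 11 members higher and 10 to 13 lower, and 3173 to 4183 and 3626 to 4562 of all genes. Replicate numbers are only names here: deviations of same-numbered libraries correlated at 0.16, 0.04 and 0.06, and not every library correlated best with its own number. A replicate block gave 8 members higher and 13 lower, and 3920 and 4242 of all genes, with the calls of Mtf2, Smyd3 and Ehmt2 lost and that of Kmt2c gained, and among the wider list that of Rbbp7 lost. Without the length trend 7 members changed sign, Kdm6a (0.094), Kmt2c (0.081), Setd1a (0.056), Setd2 (0.13), Setdb1 (0.065), Kdm2a (0.31) and Kdm3a (0.14), none of them called as fitted. Leaving out 1 library turned the sign of 10 members that were not called, with ranges for Cbx2 (-0.20 to 0.18), Cbx7 (-0.10 to 0.29), Cbx8 (-0.0081 to 0.34), Kdm2a (-0.085 to 0.040), Kdm3a (-0.054 to 0.043), Kdm6a (-0.12 to 0.036), Nsd3 (-0.034 to 0.18), Setd1a (-0.16 to 0.0071), Smyd2 (-0.17 to 0.018) and Suv39h1 (-0.075 to 0.33). The other members kept their sign in every setting tried. Of the 23 called members 15 kept their call in every setting other than the minimum change. At 3 libraries a group, small changes such as those of Kmt2b and Jarid2 lie at the edge of what the depth and spread resolve.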
